A study of Mus musculus with 16 samples.

Results

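The 9 genes described are the MHC antigen presentation genes H2-Aa, H2-Ab1, H2-Eb1, Cd74, Ciita, H2-K1, H2-D1, B2m and Tap1, found by symbol among the 41079 genes of the deposited liver count table. They were chosen for their place in class II and class I presentation. Bulk liver RNA was sequenced from 16 mice on a C57BL/6J background, all 20 to 22 months old, in 4 groups of 4: male CRE-, male LKO, female CRE- and female LKO. LKO mice carried a Gcgr gene, which encodes the glucagon receptor, with LoxP sites around part of its exons. They also carried a Cre recombinase driven by the Albumin promoter, which deletes that part of the gene in hepatocytes. CRE- mice carried the same floxed allele without Cre, so the groups differ in Cre itself as well as in the deletion. Libraries held 33268424 to 56488920 counted reads. The comparisons asked whether loss of the hepatocyte receptor went with other levels of these genes in aged males and in aged females.

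Class II molecules display peptides from material taken up by a cell. H2-Aa encodes an alpha chain and H2-Ab1 and H2-Eb1 encode beta chains, Cd74 encodes the invariant chain that guides them through the cell, and Ciita encodes the transactivator that class II transcription requires. Class I molecules display peptides made inside the cell: H2-K1 and H2-D1 encode heavy chains, B2m the light chain, and Tap1 a subunit of the peptide transporter. In liver, class II is chiefly a property of macrophages, dendritic cells and B cells, and class I is carried by most cells including hepatocytes. In whole tissue, fewer cells of a type and less RNA per cell cannot be told apart.

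The targeted gene was read before the members. Gcgr stood at 48.8, 132, 119 and 93.6 CPM (counts scaled to library size) in female LKO replicates 1 to 4 and at 162, 208, 201 and 180 CPM in female CRE- mice, with no overlap. In males it stood at 117, 136, 130 and 160 CPM in LKO and at 190, 193, 127 and 190 CPM in CRE- mice, and the values overlapped. Counts cover exons outside the deleted stretch too, so they check the deletion only in part. Alb, which encodes albumin and marks hepatocytes, lay between 41687 and 105504 CPM in the 16 libraries, which fits the liver label.

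Corrected for gene length, B2m had the highest level and Ciita the lowest. Over the 16 mice, mean ± SD RPKM (CPM per kilobase of exon) were 1965 ± 508 for B2m, 775 ± 199 for H2-K1 and 511 ± 132 for H2-D1. Class II chains lay lower, with Cd74 at 228 ± 147 RPKM, H2-Aa at 114 ± 72.6, H2-Ab1 at 97.7 ± 60.1 and H2-Eb1 at 63.6 ± 39.0. Tap1 reached 13.9 ± 5.68 RPKM and Ciita 0.801 ± 0.404. Within a mouse this order was stable: each gene exceeded the next in 16 of 16 mice, except H2-K1 over H2-D1 in 15 and H2-Aa over H2-Ab1 in 14. Across mice the ranges of neighbours overlapped for every pair but Tap1 and Ciita. Reads that fit several places were not counted, so the levels of H2-K1 and H2-D1, which resemble each other and other class I genes, are uncertain.

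Class II levels differed between mice of the same group. Cd74 was at 467, 127, 123 and 754 CPM in male CRE- replicates 1 to 4 and at 410, 214, 159 and 159 CPM in male LKO. In females it was at 220, 143, 199 and 748 CPM in CRE- and at 255, 257, 412 and 510 CPM in LKO. The 6 highest values, 410 CPM or more, were those of male CRE- replicates 1 and 4, male LKO replicate 1, female CRE- replicate 4 and female LKO replicates 3 and 4, and LKO and CRE- values overlapped in both sexes. The highest Cd74 value was 6.13-fold the lowest in male CRE- and 5.23-fold in female CRE-, against 2.59-fold in male LKO and 2.003-fold in female LKO. This difference in spread was not tested, and in females it rested on CRE- replicate 4. The other female CRE- values lay within 143 to 220 CPM, a narrower spread than in female LKO.

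The chains followed the same mice. H2-Aa was at 184, 47.7, 41.3 and 260 CPM in male CRE-, and at 208, 89.6, 61.8 and 58.9 CPM in male LKO. In female CRE- it was at 86.7, 59.0, 88.7 and 291 CPM, and in female LKO at 81.3, 103, 155 and 233 CPM. The mouse with the highest value in each group was the same as for Cd74. H2-Ab1 was at 180, 49.8, 53.0 and 266 CPM in male CRE-, and at 129, 86.3, 56.5 and 55.9 CPM in male LKO. Its female values were 79.0, 54.0, 84.9 and 258 CPM in CRE- and 88.1, 101, 125 and 197 CPM in LKO. All these groups overlapped. H2-Eb1 was at 169, 45.2, 41.4 and 243 CPM in male CRE-, and at 147, 76.7, 56.1 and 51.6 CPM in male LKO. Its female values were 79.6, 46.3, 70.7 and 210 CPM in CRE- and 70.3, 91.2, 110 and 191 CPM in LKO, again with overlap.

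Ciita, the transactivator, had a partly different order of mice. It was at 12.7, 3.25, 8.27 and 11.3 CPM in male CRE-, and at 8.51, 4.87, 4.99 and 3.27 CPM in male LKO. In female CRE- it was at 6.76, 3.58, 4.36 and 11.9 CPM, and in female LKO at 16.8, 5.63, 9.33 and 9.75 CPM. Female LKO replicate 1 had the highest Ciita of all 16 mice and the lowest H2-Aa of its group.

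The class I chains H2-K1, H2-D1 and B2m spread least in male LKO. H2-K1 was at 2098, 1744, 1010 and 2635 CPM in male CRE- and at 1441, 1568, 1428 and 1544 CPM in male LKO. The coefficient of variation was 36.4% in the former and 4.75% in the latter, and the difference in spread was not tested. In females H2-K1 was at 1705, 1718, 1764 and 2499 CPM in CRE- and at 1061, 1677, 1632 and 1456 CPM in LKO. All 4 female LKO values lay below all 4 female CRE- values, which made H2-K1 the only member without overlap in either sex. Groups did not overlap for 11.6% of all 16742 genes tested in females and 6.49% in males, so 1 of 9 members in females and 0 of 9 in males is near that background.

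B2m, the partner chain, was at 1814, 1593, 833 and 2476 CPM in male CRE- and at 1572, 1772, 1815 and 1688 CPM in male LKO. In females it was at 1640, 1774, 1813 and 2449 CPM in CRE- and at 912, 1904, 1671 and 1258 CPM in LKO. Male CRE- replicate 3 and female LKO replicate 1 were the lowest mice for both B2m and H2-K1 in their sex. H2-D1 was at 1074, 776, 476 and 1369 CPM in male CRE-, and at 829, 758, 731 and 731 CPM in male LKO. Its female values were 846, 688, 710 and 1236 CPM in CRE- and 857, 1003, 967 and 1134 CPM in LKO, with overlap. Tap1, the transporter subunit, was at 63.1, 23.7, 31.0 and 71.8 CPM in male CRE-, and at 40.6, 29.4, 36.5 and 26.6 CPM in male LKO. In female CRE- it was at 38.1, 26.6, 27.7 and 55.4 CPM, and in female LKO at 76.2, 29.8, 45.6 and 36.2 CPM. Female LKO replicate 1, the lowest of its group for H2-K1 and B2m, was the highest of all mice for Tap1.

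**Figure D1:**
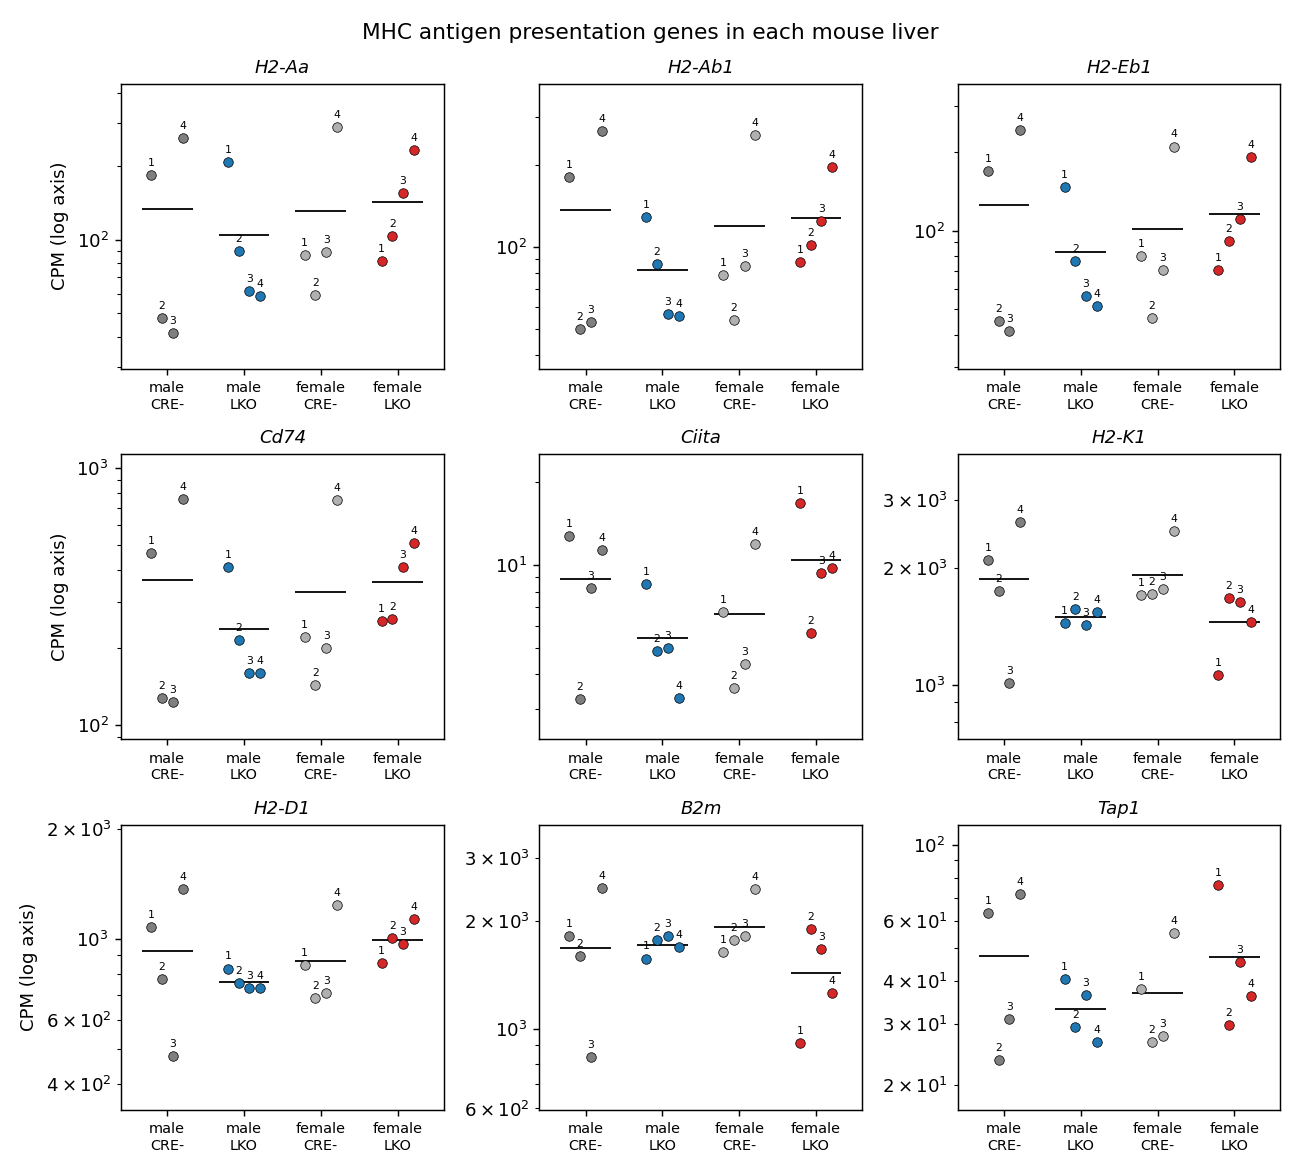
Level of each member in each liver, in CPM on a log axis, by group, where points are mice numbered by replicate and lines are group means of 4. Male CRE- replicate 4 and female CRE- replicate 4 stand high for Cd74, at 754 and 748 CPM, and the H2-K1 values of male LKO lie within 1428 to 1568 CPM.

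No member passed the test in either sex. With edgeR's quasi-likelihood test and Benjamini-Hochberg adjustment over all 16742 genes tested, 0 of 9 members had an adjusted p under 0.05 in male LKO, where 0.454% of all genes did, and 0 of 9 in female LKO, where 4.24% did. At an unadjusted p under 0.05 the count was also 0 of 9 in each sex, against 9.53% of all genes in males and 21.4% in females. DESeq2 called 0 of 9 in each sex, with 0 unadjusted, and limma-voom called 0 of 9, with 3 unadjusted in males and 1 in females. All 9 members passed the filter on low counts. Over all genes, 76 were called in males and 710 in females, and both totals hinged on individual animals. In males, 28, 32, 26 and 49 genes were called when male CRE- replicates 1 to 4 were left out in turn, 43, 41, 39 and 40 when male LKO replicates 1 to 4 were, and 50 when female CRE- replicate 2 was. The female count was 385, 87, 122 and 110 without female CRE- replicates 1 to 4, 237, 1310 and 404 without female LKO replicates 1, 2 and 4, and 428 and 427 without male LKO replicates 2 and 4. Left-out mice not named here moved a count by less than 1.5 times.

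In males, 8 of 9 fold changes were negative. The median log2 fold change of the members, LKO against CRE-, was -0.51, beside -0.01 over all genes. Across the alternatives other than left-out mice it ran from -0.66 to -0.26, the latter with a block for replicate number. Cd74 had -0.64 (SE 0.59; 95% interval -1.89 to 0.60; edgeR adjusted p = 0.77) and H2-Ab1 -0.75 (-1.90 to 0.41). Ciita had -0.71 (-1.67 to 0.24), Tap1 -0.51 (-1.26 to 0.24) and B2m 0.03 (-0.58 to 0.63). Every interval held 0, and for the class II chains and Cd74 each spanned over 2 log2 units, so that sizeable changes in either direction were not detectable with this spread. Without male CRE- replicate 4, Cd74 was -0.018, H2-Ab1 -0.20 and Tap1 -0.24. Without male LKO replicate 1, Cd74 and H2-Ab1 were -1.08 and -1.08. Without male CRE- replicate 4 the members' median was -0.04, and without male LKO replicate 1 it was -0.95.

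In females, 7 of 9 fold changes were positive, between 0.10 and 0.65. The median was 0.13, beside 0.04 over all genes, and it was 0.69 with limma-voom. Cd74 had 0.13 (SE 0.59; 95% interval -1.11 to 1.37; edgeR adjusted p = 0.93) and Ciita 0.65 (-0.30 to 1.60; adjusted p = 0.44). H2-K1 had -0.40 (-0.93 to 0.13; adjusted p = 0.39) and B2m -0.42 (-1.02 to 0.19; adjusted p = 0.43), the negative values of the list. Ciita was 0.33 without female LKO replicate 1 and 1.09 without female CRE- replicate 4. H2-K1 was -0.23 without female CRE- replicate 4, and B2m was -0.23 without female LKO replicate 1. Across the alternatives other than left-out mice, Cd74 ran from 0.14 to 0.87. Without female CRE- replicate 4 the members' median was 0.84, and without female LKO replicate 4 it was -0.16, so its sign rested on single mice.

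**Figure D2:**
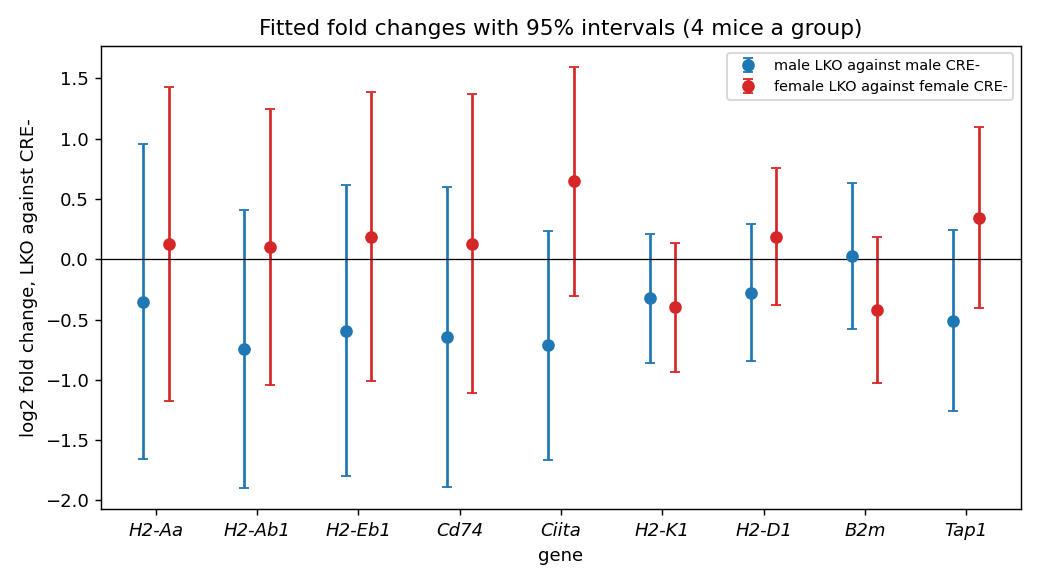
Fitted log2 fold change of each member, LKO against CRE-, in males and in females, with 95% intervals from edgeR and 4 mice a group. Every interval includes 0, and the points lie between -0.75 and 0.65.

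The difference of the LKO effect between the sexes was called for 0 of 9 members and for 0% of all genes by edgeR. At an unadjusted p under 0.05 it held for 15.96% of all genes (2672) and for 1 of 9 members, Ciita, at 1.36 (SE 0.64; edgeR unadjusted p = 0.0475, adjusted p = 0.31), and 1.05 without female LKO replicate 1. DESeq2 called 371 genes for this difference and limma-voom 29. No member was called by either, and the lowest adjusted p of a member was 0.0864, for Ciita with limma-voom. Female CRE- against male CRE- called 0.920% of all genes and 0 of 9 members, and at an unadjusted p under 0.05 12.7% of all genes and 0 of 9 members.

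Within groups, the class II chains and Cd74 varied together from mouse to mouse. Over deviations of log2 CPM from the group mean in 16 livers, given as a description, Pearson r was 0.99 for H2-Aa with H2-Eb1 (Spearman rho 0.99) and 0.99 for H2-Aa with Cd74. Without the mice farthest from the median, female CRE- replicate 4 and male CRE- replicate 4, these were 0.99 and 0.99. H2-D1 was close to them too, with r of 0.87 to 0.89, and H2-K1 less so, with 0.71 to 0.72. Without the same mice these fell to 0.77 to 0.80 for H2-D1 and 0.53 to 0.55 for H2-K1. The mean class II and class I profiles had r of 0.84. Ciita had r of 0.72 to Cd74 (rho 0.62), and 0.63 without those mice. It was closest to Tap1, with r of 0.91 (rho 0.86; 0.86 without male CRE- replicate 2 and female CRE- replicate 4), and had r of -0.03 to B2m. H2-K1 went with B2m at r of 0.97 (rho 0.89; 0.92 without male CRE- replicates 3 and 4) but not with Tap1, at 0.32 (rho 0.25; -0.02 without those mice). The pooled within-group SD of log2 CPM was 0.995 for H2-Aa, 0.94 for Cd74, 0.72 for Ciita and 0.36 for H2-K1, beside a median of 0.44 over all genes tested.

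**Figure D3:**
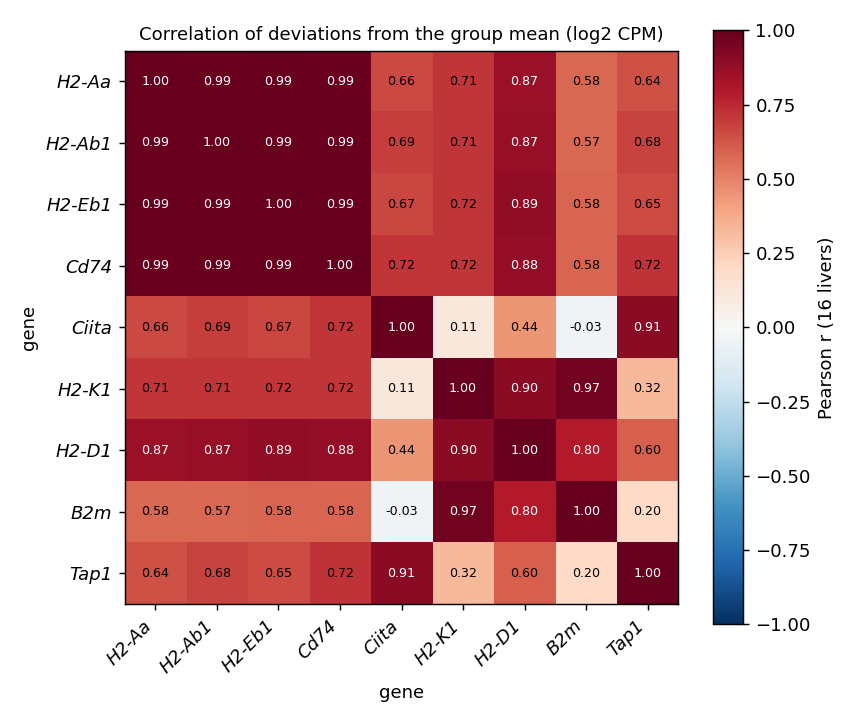
Pearson correlation between members of the deviations of log2 CPM from the group mean, over 16 livers. Values among H2-Aa, H2-Ab1, H2-Eb1 and Cd74 lie at 0.99, and Ciita with B2m at -0.03.

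Over the same deviations from the group means, the 10 genes most like the mean of H2-Aa, H2-Ab1, H2-Eb1 and Cd74 included some but not all other class II genes. H2-DMb1 (r = 0.96) and H2-DMa (r = 0.94) encode the chains of the molecule that loads class II peptides. Other class II chain genes were less like this mean, with H2-Oa at 0.41, H2-DMb2 at 0.16, H2-Eb2 at 0.11 and H2-Ob at 0.03. Of the remaining genes of the class II presentation list below, Ifi30 had 0.89 and Ctss 0.85. Lgmn had 0.50, Marchf1 0.37 and Marchf8 -0.84. The others of the leading 10 were Smim29 (0.96), Trp53 (0.93), Cxcl16 (0.93), Fcer1g (0.92), Mcemp1 (0.92), Sh3bgrl3 (0.92), Tmsb10 (0.92) and Srgn (0.92). Most like the mean of H2-K1, H2-D1, B2m and Tap1 were Ifi27l2a (0.96), Ly6a (0.95), Aig1 (0.94), H2-T23 (0.94), a nonclassical class I gene, Irf1 (0.93), an interferon regulatory factor, Gm53999 (0.92), Ercc1 (0.92), Ighg2b (0.92), 1110046J04Rik (0.91) and Pilrb2 (0.91). Gm53999 overlaps H2-K1 exons on the opposite strand, and counting used the strand. The median r of all genes tested was -0.01 for the former profile and 0.01 for the latter.

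Of the pathway lists, which in part hold the members, 1 gene passed the test in nonclassical class I and 1 in class II presentation. Of 17 nonclassical class I genes tested, Mr1, which presents vitamin B metabolites to T cells, fell in male LKO, the 1 gene called of the 17 beside 0.454% of all genes. Of the list, 3 genes in males and 4 in females had an unadjusted p under 0.05, beside 9.53% and 21.4% of all genes. Mr1 was at 9.54, 9.91, 15.1 and 10.9 CPM in male CRE- and at 4.27, 4.48, 2.93 and 3.05 CPM in male LKO, with no overlap. Its log2 fold change was -1.62 (SE 0.27; edgeR adjusted p = 0.00992), and the adjusted p stayed between 0.00447 and 0.0464 when each mouse was left out. In females Mr1 was at 10.3, 6.70, 9.48 and 10.1 CPM in CRE- and 7.40, 3.09, 4.72 and 5.50 CPM in LKO, a log2 fold change of -0.82 (adjusted p = 0.080), and the difference between the sexes did not pass (edgeR adjusted p = 0.30).

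Of 16 class II presentation genes tested, 5 of them members, Lgmn, which encodes a lysosomal protease, rose in female LKO. It was at 96.1, 71.5, 82.5 and 76.5 CPM in female CRE- and at 305, 124, 207 and 164 CPM in female LKO, a log2 fold change of 1.29 (SE 0.31; edgeR adjusted p = 0.0321). It was the 1 gene called of the 16, where 4.24% of all genes were called. The call was lost without female CRE- replicate 1 (adjusted p = 0.0504), 2 (0.110), 3 (0.0888) or 4 (0.0813) and without female LKO replicate 1 (0.0955) or 3 (0.0538). In males its log2 fold change was 0.17, and the difference between the sexes did not pass (edgeR adjusted p = 0.24). The call was also lost with each sex fitted alone (0.0560). Among the 11 genes of the list that are not members, 10 had positive fold changes in females, with a median of 0.77, and 3 in males, with a median of -0.11. Within female LKO, male CRE- and male LKO mice, Lgmn had the same order as the summed Kupffer cell markers given below. Within female CRE- mice the orders differed, with replicate 1 highest for Lgmn and replicate 4 for those markers.

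The remaining pathway lists had 0 called genes by edgeR, and their unadjusted counts stand beside 9.53% of all genes in males and 21.4% in females. Of 17 class I presentation genes, 4 of them members, 1 had an unadjusted p under 0.05 in males and 0 in females: Nlrc5, the class I transactivator, with -0.85 in males (edgeR adjusted p = 0.42) and 0.46 in females. Psmb9, an immunoproteasome subunit, had -0.69 in males (adjusted p = 0.58), and Psme2, a proteasome activator subunit, -0.28 in females (adjusted p = 0.54). Nlrc5 was -0.53 without male CRE- replicate 1, Psmb9 -0.38 without male CRE- replicate 4 and Psme2 -0.08 without female CRE- replicate 4. Among 8 factors of the MHC promoter complex, Nfyb had -0.52 in females (adjusted p = 0.086), Rfxank -0.60 (0.24) and Rfx5 -0.35 (0.34), with 0 unadjusted in males and 1 in females. Among 17 interferon gamma signalling genes, the receptor chains Ifngr2 and Ifngr1 had 0.72 (adjusted p = 0.081) and 0.75 (0.084) in females and Socs3 0.99 (0.33), with 0 unadjusted in males and 2 in females. Among 7 costimulation genes tested, Icosl had 1.19 (adjusted p = 0.055), Cd86 1.62 (0.13) and Cd40 1.13 (0.19) in females, with 0 unadjusted in males and 3 in females. Without female LKO replicate 1, Cd86 was 0.56 (0.657). Other tools called some of these genes in females. DESeq2 called Icosl (adjusted p = 0.00936), Ifngr1 (0.0405) and Ifngr2 (0.0352), and limma-voom called Icosl (0.0150), Cd40 (0.00978), Ifngr1 (0.0146), Ifngr2 (0.0237) and Nfyb (0.0323). By edgeR, Icosl was called without male CRE- replicate 2 (0.0380) or female LKO replicate 2 (0.0260). Without the latter mouse Ifngr2 (0.0304) and Nfyb (0.0462) were called as well, and without female CRE- replicate 1 Socs3 was 2.01 and called (0.0401). With a block for replicate number, Ifngr1 and Icosl were called in females.

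Macrophage and neutrophil markers rose in female LKO in part, while no member was called. Of 11 monocyte and macrophage markers, 11 had positive fold changes in females (median log2 fold change 1.81, 10 unadjusted) and 3 were called, beside 21.4% unadjusted and 4.24% called of all genes. In males 4 were positive (median -0.17, 1 unadjusted) and 0 were called. The genes called in females were Trem2 (2.701; edgeR adjusted p = 0.0249), Itgam (2.57; 0.0369) and Adgre1 (2.15; 0.0451). The Trem2 call was lost without female CRE- replicates 2, 3 or 4 or female LKO replicate 1, at adjusted p of 0.0868, 0.0817, 0.0679 and 0.0655. The Itgam call was lost without the same mice, at 0.121, 0.111, 0.0951 and 0.117, and without female LKO replicate 4, at 0.0625. The Adgre1 call was lost without male CRE- replicate 1, male LKO replicates 2, 3 or 4, each of the female CRE- mice in turn, or female LKO replicates 1 or 3, at adjusted p of 0.0561 to 0.189. Its log2 fold change without female LKO replicate 1 was 1.21 (adjusted p = 0.189). With each sex fitted alone the Itgam and Adgre1 calls were lost too (0.0758 and 0.0857). The Adgre1 call was also lost with upper-quartile scaling (0.0518) and with a block for replicate number. The list's summed level was 1494, 684, 1165 and 879 CPM in female LKO and 492, 315, 343 and 554 CPM in female CRE-. In males it was 602, 261, 195 and 887 CPM in CRE- and 713, 377, 385 and 342 CPM in LKO, high in the same mice as Cd74. Lyz2 had the highest mean CPM of the list and was its highest gene in 14 of 16 mice, and no marker was at 0.

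Of 9 markers of Kupffer cells, the resident macrophages of liver, 9 had positive fold changes in females (median 1.31) and 9 in males (median 0.18). By edgeR 0 were called in either sex, with 7 unadjusted in females and 0 in males. Their summed level was 3574, 1072, 2527 and 1542 CPM in female LKO and 840, 622, 695 and 1432 CPM in female CRE-, with Cd5l the highest by mean CPM and none at 0. In males it was 923, 502, 238 and 1399 CPM in CRE- and 1305, 713, 798 and 747 CPM in LKO. Female LKO replicate 1, the highest for Kupffer markers, had the lowest H2-Aa of its group. Over deviations from the group means, several Kupffer markers nonetheless varied with the mean class II profile. Pearson r was 0.87 for C1qb, 0.86 for C1qa, 0.81 for C1qc and 0.71 for Vsig4. It was 0.57 for Cd5l, 0.51 for Timd4, 0.41 for Clec4f, 0.04 for Folr2 and 0.0006 for Marco. Of 6 neutrophil markers tested, 2 were called in females, Mmp8 (3.50; edgeR adjusted p = 0.0266) and Retnlg (2.86; 0.0331), with 6 unadjusted, beside 4.24% called and 21.4% unadjusted of all genes. Both calls were lost whichever female CRE- mouse was left out, and without female LKO replicates 1 or 4. Without female LKO replicate 4 the log2 fold changes were 2.66 (adjusted p = 0.0627) and 2.04 (0.0833). Both calls were lost with each sex fitted alone (0.0699 and 0.0634), and Mmp8 also with limma-voom (0.0927) and with a block for replicate number. In males 0 of 6 were positive (median -1.87), with 0 called by edgeR and 5 unadjusted, beside 9.53% of all genes. The summed level was 112, 44.3, 59.3 and 506 CPM in female LKO and 36.0, 20.6, 16.8 and 16.8 CPM in female CRE-, with S100a9 the highest by mean CPM. In males it was 74.4, 20.6, 17.4 and 134 CPM in CRE- and 27.1, 16.6, 12.97 and 12.5 CPM in LKO. Ly6g was at 0 in 9 mice, among them 3 CRE- females. For the macrophage, Kupffer and neutrophil markers alike, their part in the values of the members, Lgmn and the other class II presentation genes was not tested.

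Other cell types gave 0 called markers by edgeR in both sexes, and the same shares of all genes apply to their unadjusted counts. Dendritic cell markers, with Fscn1 the highest by mean CPM, had 8 of 10 positive values in females (median 0.43) and 3 of 10 in males, with 0 unadjusted in either, and Siglech was at 0 in female LKO replicate 4. B cell markers, with Cd22 the highest by mean CPM, had 8 of 8 positive in females (median 0.59, 3 unadjusted, 0 in males), with a summed level of 130, 35.7, 62.5 and 15.1 CPM in female LKO against 52.2, 20.8, 28.4 and 25.7 CPM in female CRE-. T and NK cell markers, with Nkg7 the highest by mean CPM, had 10 of 11 positive in females (median 0.28, 1 unadjusted, 0 in males). The female medians were 0.24 for plasma cell markers (1 unadjusted in each sex, Tnfrsf17 at 0 in female LKO replicate 1) and 0.15 for sinusoidal endothelial markers (1 unadjusted in males, 2 in females). They were -0.07 for stellate cell markers (1 unadjusted in males, 0 in females) and 0.24 for cholangiocyte markers (0 unadjusted in either). The plasma cell gene counted was Sdc1, the highest of its list by mean CPM, with -0.60 in males and -0.50 in females. Hepatocyte markers, with Alb the highest in 16 of 16 mice, had 0 of 8 positive in females (median -0.73, 3 unadjusted, 2 in males) and summed to 49945, 94656, 90944 and 69594 CPM in female LKO against 116135, 116446, 121741 and 138863 CPM in female CRE-. Female LKO replicate 1 was the lowest female for hepatocyte markers and for H2-K1 and B2m. Male CRE- replicate 3, the lowest male for both of these genes, had the highest hepatocyte sum of the males (105489 CPM). The part of the hepatocyte markers was not tested either.

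Of the members, 6 lie on chromosome 17 (GRCm39) within chr17:34214986-35486473, the stretch of the MHC from H2-K1 to H2-D1. H2-K1 is at chr17:34214986-34219316, Tap1 at chr17:34406530-34416199, H2-Ab1 at chr17:34482201-34488392, H2-Aa at chr17:34501718-34506797, H2-Eb1 at chr17:34524841-34535648 and H2-D1 at chr17:35482070-35486473. B2m is at chr2:121978168-121983563, Ciita at chr16:10297877-10348928 and Cd74 at chr18:60936921-60945724. Among the 78 other genes tested within this stretch, an interval set after the values were seen, 0 were called by edgeR in males and 3 in females, Col11a2, Ager and D17H6S56E-5, named after their values were seen (7 unadjusted in each sex), with median log2 fold changes of 0.03 and 0.14. The called share was 3.85% in females, near the 4.24% of all genes. The unadjusted share was 8.97% in each sex, against 9.53% of all genes in males and 21.4% in females.

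Promoters were read from the RefSeq table (GRCm38.p6) for 6 of the 9 members. Those of H2-Ab1, Ciita and Cd74 were not searched, so the matches below leave these genes open. In 250 bases before to 50 after the start, on both strands, CCAAT (the Y box) occurred in all 6 and in 37.4% of all 32851 promoters. GAAANNGAA, letters of the interferon-stimulated response element, occurred in B2m alone and in 8.56% of all. CCTAGNNAC (X box letters, 3.91% of all) and TTCNNNGAA (gamma-activated site letters, 8.3% of all) occurred in none of the 6. After the sequences had been seen, 2 further forms were searched, chosen because they fit them: CTAGNAAC, found in H2-Eb1 and 3.62% of all, and GAANNGAAA, found in H2-K1 and H2-D1 and 7.52% of all. These are descriptions of letters, and the added forms were picked to match. Matches of CTAGNAAC and CCTAGNNAC can overlap, as can those of GAANNGAAA and GAAANNGAA.

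The 250 bases before the start are shown for the class II genes H2-Aa and H2-Eb1 and for the class I chains, to compare the place of the matches. They run 5′ to 3′ on the gene's strand, with matches to any of the 6 motifs in capitals. In GRCm39, where each was matched at 1 place, they lie upstream of the gene at chr17:34506798-34507047 (minus strand) for H2-Aa, chr17:34524591-34524840 (plus) for H2-Eb1, chr17:34219308-34219557 (minus) for H2-K1, chr17:35481820-35482069 (plus) for H2-D1 and chr2:121977918-121978167 (plus) for B2m. For H2-K1 the table holds 2 starts, and the 5′-most bases of the annotated gene overlap the shown stretch.
H2-Aa: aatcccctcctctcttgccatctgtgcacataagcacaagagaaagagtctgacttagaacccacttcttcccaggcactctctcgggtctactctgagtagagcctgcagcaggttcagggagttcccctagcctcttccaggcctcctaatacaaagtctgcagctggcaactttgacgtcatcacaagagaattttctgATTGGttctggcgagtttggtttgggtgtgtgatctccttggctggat
H2-Eb1: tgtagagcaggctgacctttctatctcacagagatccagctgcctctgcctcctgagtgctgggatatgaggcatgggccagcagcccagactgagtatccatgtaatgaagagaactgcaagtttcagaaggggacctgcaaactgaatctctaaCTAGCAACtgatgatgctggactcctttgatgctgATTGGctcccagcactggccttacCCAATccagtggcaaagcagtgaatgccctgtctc
H2-K1: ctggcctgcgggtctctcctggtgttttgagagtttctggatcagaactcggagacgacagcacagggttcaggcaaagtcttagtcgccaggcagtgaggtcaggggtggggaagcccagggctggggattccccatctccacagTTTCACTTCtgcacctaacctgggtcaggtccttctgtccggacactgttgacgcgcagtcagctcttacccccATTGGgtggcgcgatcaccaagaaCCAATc
H2-D1: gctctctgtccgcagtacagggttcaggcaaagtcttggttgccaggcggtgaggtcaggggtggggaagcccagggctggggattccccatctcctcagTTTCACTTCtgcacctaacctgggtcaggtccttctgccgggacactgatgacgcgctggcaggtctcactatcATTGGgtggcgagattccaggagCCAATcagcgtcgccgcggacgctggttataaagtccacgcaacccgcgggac
B2m: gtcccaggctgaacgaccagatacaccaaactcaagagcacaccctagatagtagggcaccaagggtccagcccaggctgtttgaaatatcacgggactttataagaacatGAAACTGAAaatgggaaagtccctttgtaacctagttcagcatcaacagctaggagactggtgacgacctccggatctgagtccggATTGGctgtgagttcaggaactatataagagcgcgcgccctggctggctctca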

How the data were processed

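Liver RNA of 16 mice was sequenced as paired reads. The authors aligned the reads with STAR 2.7.1a to GRCm39 and counted them per gene with featureCounts (Subread 2.0.6), using the strand; the deposited values are raw counts, per the file headers, with multi-mapping reads and reads over several genes left out and both mates counted. Counts of 41079 genes were filtered with filterByExpr (minimum count 10), which kept 16742, scaled by TMM and fitted in 1 model of 4 groups with edgeR 4.0.16 in R 4.3.3 (quasi-likelihood test, Benjamini-Hochberg over all genes tested, adjusted p under 0.05). CPM used TMM library sizes, log2 CPM a prior count of 2, and RPKM the deposited gene length. Standard errors were the fold change over the root of F, and 95% intervals used the test's degrees of freedom. Alternatives were DESeq2 1.42.0, limma-voom 3.58.1 with sample weights, RLE and upper-quartile scaling, 2 other filters, each sex alone, a replicate block and leaving out each of 16 mice. The steps were tested on simulated data. Genes named are the members, each list's called genes or, in pathway lists, the 3 with the smallest p, and the 10 most like each profile. The members and lists were chosen with earlier results of these data known. The chromosome 17 interval and 2 of the 6 motifs were added after the values or sequences had been seen.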

Additional observations from a re-analysis of the deposited data

Results flagged for a closer look

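In groups of 4, a mouse was singled out by its gap to the nearest other, as a share of the group's range. The gap had to exceed Dixon's 95% critical value, which chance meets in about 1 group in 20 for independent, normally distributed values. It was met 23 times over 156 groups of values. These groups hold untransformed CPM and share mice and correlated genes, so that rate cannot be set against the count. Female CRE- replicate 4 stood high for H2-Aa (291 CPM), H2-Ab1 (258 CPM), Cd74 (748 CPM), H2-K1 (2499 CPM), Psme2 (157 CPM) and Cd40 (3.10 CPM). Male LKO replicate 1 stood high for Nlrc5 (29.0 CPM), Icosl (3.65 CPM), Cd86 (10.8 CPM), Trem2 (10.2 CPM), Itgam (12.01 CPM) and Adgre1 (62.3 CPM), and for the summed dendritic cell (39.6 CPM), Kupffer cell (1305 CPM) and monocyte and macrophage markers (713 CPM). Female LKO replicate 1 stood high for Cd86 (50.5 CPM), and female LKO replicate 4 for summed neutrophil markers (506 CPM) and Ifngr1 (65.1 CPM). Rfxank in male LKO replicate 3 (19.2 CPM) and Socs3 in female CRE- replicate 1 (41.2 CPM) were high. Low values were Mmp8 in male LKO replicate 4 (0.054 CPM), summed plasma cell markers in male CRE- replicate 1 (430 CPM) and summed sinusoidal endothelial markers in female CRE- replicate 1 (272 CPM). No member or named gene differed between the sexes in its LKO effect at an adjusted p under 0.05 by edgeR. The smallest values were those of Mmp8 (unadjusted p = 3.21e-05, adjusted p = 0.104) and Retnlg (0.000299, 0.135), and among the members that of Ciita (0.0475, 0.31).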

How the results depend on the processing

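No member passed the threshold under any alternative that was run. With 1 mouse left out, 538 of 576 fold changes of members kept their direction, as did 258 of 261 under the other alternatives. The other 3 were with limma-voom: B2m in males was -0.025, H2-K1 was 0.20 in the difference between the sexes and -0.15 in female against male CRE-. The members' female median was 0.69 with limma-voom. With 1 mouse left out the median ran from -0.95 to -0.041 in males and from -0.16 to 0.84 in females. In males H2-Aa ran from -0.95 to 0.20 and B2m from -0.21 to 0.28. In females H2-Aa ran from -0.21 to 0.90, H2-Ab1 from -0.18 to 0.84, H2-Eb1 from -0.16 to 0.84 and Cd74 from -0.12 to 0.96. In the difference between the sexes H2-Aa ran from -0.079 to 1.28 and H2-K1 from -0.29 to 0.16. Between CRE- females and males H2-Aa ran from -0.82 to 0.53, H2-Ab1 from -0.97 to 0.34, H2-Eb1 from -0.98 to 0.25, Cd74 from -1.02 to 0.46, H2-K1 from -0.18 to 0.25, H2-D1 from -0.35 to 0.17 and B2m from -0.047 to 0.44. Counts of called genes over all genes were 339 (DESeq2) and 148 (limma-voom) in males. In females they were 1816 (DESeq2), 1976 (limma-voom) and 119 (each sex fitted alone). For the difference between the sexes they were 371 (DESeq2), 29 (limma-voom), 12 (no filter) and 2 (replicate block), and between CRE- females and males 509 (DESeq2), 329 (limma-voom) and 78 (at least 10 counts in every library). With 1 mouse left out these counts ran from 26 to 111, 87 to 1310, 0 to 14 and 68 to 213. The cause was not tested. CRE- and LKO mice of the same replicate number had correlated deviations at 0.17, 0.17, 0.14 and -0.01 in males and 0.17, 0.10, 0.12 and 0.03 in females, and the same number was the best match in 4 of 8. Since 2 of the 8 lay under 0.1 and the labels give no shared source, the samples were not treated as pairs. In the deposited column names, male CRE- replicate 4 and female LKO replicates 3 and 4 carry numbers other than their replicate numbers. Both values under 0.1 involve these mice, and pairing by column name was not tested. With the replicate block 67 genes were called in males and 1012 in females, Ifngr1 and Icosl passed in females (adjusted p = 0.0387 and 0.0389), and Adgre1 and Mmp8 did not (0.0614 and 0.0811). The members' median with it was -0.26 in males and 0.31 in females, with Cd74 at -0.28 and 0.39 and H2-Aa at -0.056 and 0.30. With 4 mice a group, the intervals limit what could be detected for the class II genes.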
